A study of Mus musculus with 6 samples.

Results

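JAK-STAT signalling and its SOCS feedback were examined in cultured CD8+ effector T cells (Teff) through 10 genes, chosen by symbol: Jak1, Jak3, Stat3, Stat4, Stat5a, Stat5b, Cish, Socs1, Socs2 and Socs3. All 10 were found among the 34745 genes of the files, and all 10 had a mean of at least 1 FPKM (read fragments scaled by gene length and by the library's total) over the 6 libraries. RNA was sequenced from 3 Scd-1-/- and 3 WT libraries. Scd-1 encodes stearoyl-CoA desaturase 1, the enzyme that makes monounsaturated from saturated fatty acids. Scd-1-/- cells came from mice of the line B6.129-Scd1tm1Ntam/J, which lack the gene in every tissue from the germline on, and WT cells from purchased C57BL/6J mice. All mice were males of 6 to 8 weeks. In both groups, CD8+ T cells were taken from the spleen with an isolation kit and received anti-CD3 (5 μg/mL), anti-CD28 (0.5 μg/mL) and IL-2 (100 U/mL). After 3 days they were washed and kept in IL-2 for another 3 days, and they were harvested on day 6. All cells had therefore been in a cytokine that signals through several of these genes. Littermate controls were not named, so the knockout and other differences between the mouse stocks cannot be told apart. The sources do not say how many mice went into a library. The methods speak of independent experiments for the study in general, but not of what the replicates of these libraries were, so the p-values measure only the spread between these libraries. This spread may be technical.

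Cytokines of the IL-2 family bind receptors that share the common gamma chain, and the kinases JAK1 and JAK3 on these receptors then phosphorylate STAT proteins. Phosphorylated STATs pair, enter the nucleus and bind the gamma-activated site (GAS), a short palindrome. In T cells, IL-2 acts mainly through STAT5A and STAT5B, while STAT3 is better known from IL-6 and IL-21 and STAT4 from IL-12. Genes of the SOCS family, with Cish among them, are induced by STATs, and their proteins bind receptors or kinases and damp the signal. RNA levels do not show phosphorylation, which was not measured in these libraries.

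The GAS palindrome was looked for as TTCNNNGAA, which reads the same on both strands, in promoter windows of RefSeq on GRCm38.p6 that ran from 250 bases before a gene's start to 50 after it. It was in 2 of the 9 members with a window (22.2%), Cish and Socs3, both of them feedback genes. Of all 27025 genes with a window, 9.55% held it. Cish had 2 copies, at positions 0 and 11 from its RefSeq start, and 0.457% of the 32851 windows held 2 or more. Socs3 had 1 copy, at position -154 from its start. The stretches around the copies are shown because the matches fell in 2 of the feedback genes, with the palindrome in capitals. Cish is read from the plus strand of chr9:107296654-107296683 and Socs3 from the minus strand of chr11:117969501-117969530.
Cish: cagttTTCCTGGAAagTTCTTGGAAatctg
Socs3: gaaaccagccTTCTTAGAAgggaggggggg
The windows of Socs1, Jak1, Jak3, Stat3, Stat4, Stat5a and Stat5b held no copy. A match is a string of letters and does not show that a STAT binds there.

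The libraries held between 14034479 and 15866216 counts, so that counting error was small for the members. The targeted gene Scd1 was at 58.2, 45.3 and 54.7 FPKM in WT replicates 1, 2 and 3 and at 0.398, 0.528 and 0.261 FPKM in Scd-1-/- replicates 1, 2 and 3. Every library thus matched its label. Replicate 1 of both genotypes stood apart from replicates 2 and 3 on the first principal component (42.9% of the variance), and the genotypes separated on the second (36.3%). On the second, WT replicate 1 (0.96) lay between WT replicates 2 and 3 (33.3 and 28.0) and the Scd-1-/- libraries (-23.8 to -18.2). Members and other named genes that had an adjusted p under 0.05 in replicates 2 and 3 alone, but not with all 6 libraries, are therefore also given for replicates 2 and 3 alone. Markers of CD8+ T cells summed to 2675 to 3408 CPM (counts scaled by the library's total and its TMM factor) in WT and 2550 to 3017 in Scd-1-/-. Among them Cd8a did not overlap, at 336.8 to 363.7 CPM in WT and 214.2 to 285.4 in Scd-1-/-. Its log2 fold change was -0.46, with an adjusted p of 0.297 in edgeR, and 16.1% of all genes did not overlap. Cd8b1 was at 395.2 to 496.2 and 299.4 to 448.8 CPM. Over 7 markers of myeloid cells the sums were 29.6 to 45.1 CPM in WT and 94.0 to 132.5 in Scd-1-/-, with Adgre1 at 0 and Lyz2 at 3 counts or fewer in every library. Without Fcer1g, at 8.22 to 16.0 and 29.9 to 111.2 CPM, the myeloid sums overlapped (16.5 to 36.8 and 21.3 to 64.0), which leaving out any other 1 of the 7 did not bring about. Cd14 was at 0.273 to 0.735 and 1.82 to 2.97 CPM, and Itgam reached 1.07 CPM in WT and was at 0.920 CPM or more in Scd-1-/-. Over 5 markers of natural killer cells, of which Nkg7 is also expressed by CD8+ Teff, they were 456 to 726 and 957 to 1010, with Klra8 and Klra4 at 3 counts or fewer. Nkg7 made up nearly all of these sums, which without it were 2.47 to 4.77 and 8.39 to 45.7. Over 5 markers of B cells they were 313 to 605 and 216 to 328, with Ms4a1 and Pax5 at 0, and without Ighm 19.7 to 22.9 and 6.58 to 17.0. Their part in the results was not tested. In these bulk samples, fewer cells that express a gene and less RNA per cell cannot be told apart.

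None of the 10 members passed the study's own thresholds (absolute log2 fold change 1 or more, unadjusted p under 0.001), which 0.738% of the 9627 tested genes passed. At a Benjamini-Hochberg adjusted p under 0.05 in edgeR's quasi-likelihood test, 0 members were called as well, against 0.114% of all genes, and DESeq2 and limma also called 0. At an unadjusted p under 0.05, 2 of the 10 were lower in Scd-1-/-, Stat5a and Stat5b, and none was higher. This share is to be read against 4.68% of all genes that were lower at this level and 10.1% in either direction. The log2 fold changes of the members ran from -0.56 (Stat5b) to 0.48 (Socs2), with 4 above and 6 below 0, and their median was -0.25 against a median of -0.00051 over all tested genes.

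**Figure D1:**
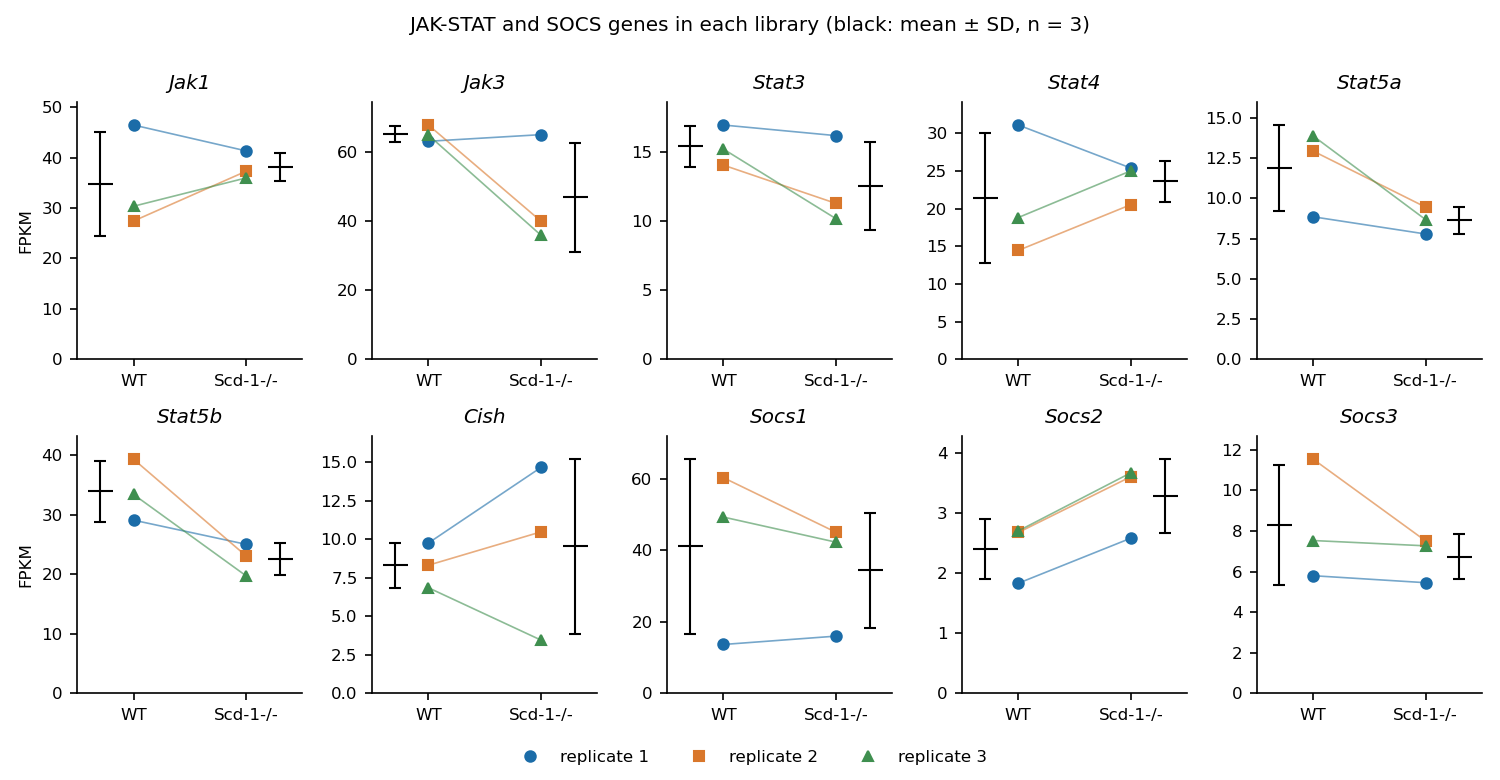
FPKM of the 10 members by library, 1 panel per gene with its own axis from 0, WT beside Scd-1-/-; each point is a library with shape and colour by replicate number, lines join libraries of the same number, and the black mark with its bar is the mean ± SD of 3 libraries. Stat5b is the only member with all Scd-1-/- libraries (19.7 to 25.0 FPKM) below all WT libraries (29.1 to 39.3), and Socs1 is lowest in replicate 1 of both genotypes.

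By the rule stated with the methods the replicate numbers were taken to pair the libraries, and a fit with the number as a block changed these counts. In it, 1 member had an adjusted p under 0.05, Stat5b, which was lower in Scd-1-/-, against 4.7% of all genes. At an unadjusted p under 0.05, 5 members were counted, against 22.4% of all genes. They were Jak3, Stat3, Stat5a and Stat5b, all lower in Scd-1-/-, and Socs2, higher. Between libraries of the same number, 3 members were lower in Scd-1-/- in all 3 pairs (Stat3, Stat5a and Stat5b), as were 22.9% of all genes. Only Socs2 was higher in all 3, as were 22.1% of all genes.

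Of the kinases, Jak3 had the highest mean FPKM of the members in both genotypes, and Jak1 ranked 3 by mean FPKM in WT and 2 in Scd-1-/-. In FPKM, Socs1 exceeded Jak3 in Scd-1-/- replicates 2 and 3, and Jak1 did so narrowly in replicate 3. In CPM, Socs1 was at 54.9 and 52.2 in Scd-1-/- replicates 2 and 3 against 312.9 and 285.1 for Jak3. The order of Socs1 and Jak3 there rests on the lengths that FPKM divides by. JAK3 binds the common gamma chain, whereas JAK1 serves many cytokine receptors. Jak3 (ENSMUSG00000031805, chr8:71676296-71690575, plus strand, GRCm38) was at 63.1, 67.8 and 64.9 FPKM in WT replicates 1, 2 and 3 and at 65.0, 40.0 and 35.9 in Scd-1-/-. Replicate 1 of Scd-1-/- was within the WT range, and replicates 2 and 3 were far below it. The WT mean of 65.3 ± 2.38 FPKM stood against 47.0 ± 15.8 FPKM in Scd-1-/- (SD, n = 3 each). On the log2 scale the difference was -0.45 ± 0.22 (SE), with an adjusted p of 0.557 in edgeR. Without Scd-1-/- replicate 1 the log2 fold change was -0.76 and the adjusted p 0.0332, a level that 1.89% of all genes reached in that fit. Without Scd-1-/- replicate 3 the log2 fold change was -0.29.

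Jak1 (ENSMUSG00000028530, chr4:101152367-101265282, minus strand) was at 46.4, 27.4 and 30.3 FPKM in WT and at 41.3, 37.3 and 36.0 in Scd-1-/-. WT replicate 1 was the highest of the 6 libraries, and the other WT libraries were the lowest. The log2 fold change was 0.15 ± 0.21 (SE), with an adjusted p of 0.881 in edgeR, and the means of 34.7 ± 10.3 and 38.2 ± 2.80 FPKM (SD, n = 3 each) differed by less than the WT spread. Leaving out WT replicate 1 gave a log2 fold change of 0.44 and leaving out WT replicate 2 one of 0.0090. The ratio of Jak3 to Jak1 FPKM averaged 1.99 ± 0.57 in WT against 1.22 ± 0.31 in Scd-1-/- (SD, n = 3 each), with ranges of 1.36 to 2.48 and 0.999 to 1.57 that overlapped.

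Stat5b and Stat5a encode the near-identical STATs downstream of IL-2, and both were lower in the Scd-1-/- means. They lie beside each other on chromosome 11 with Stat3, 8626 bases between Stat5b and Stat5a. Stat5b (ENSMUSG00000020919, chr11:100780731-100850724, minus strand) was at 29.1, 39.3 and 33.4 FPKM in WT and at 25.0, 23.1 and 19.7 in Scd-1-/-. Its highest Scd-1-/- library was below its lowest WT library, which among the members was seen for this gene alone, while 16.1% of all genes had groups that did not overlap. The mean was 22.6 ± 2.67 FPKM in Scd-1-/- against 33.9 ± 5.13 in WT (SD, n = 3 each), and the fold fitted to the TMM-scaled counts was 0.678. On the log2 scale the difference was -0.56 ± 0.16 (SE), with an unadjusted p of 0.00764 and an adjusted p of 0.268 in edgeR's test across all genes. With the replicate block the log2 fold change was -0.56 ± 0.13 (SE) and the adjusted p 0.0498, just inside the threshold.

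Stat5a (ENSMUSG00000004043, chr11:100859351-100885169, plus strand) was at 8.86, 12.9 and 13.9 FPKM in WT and at 7.79, 9.45 and 8.68 in Scd-1-/-. WT replicate 1 lay among the Scd-1-/- libraries, and WT replicates 2 and 3 above all of them. The means were 11.9 ± 2.67 and 8.64 ± 0.834 FPKM (SD, n = 3 each), with a log2 fold change of -0.43 ± 0.18 (SE), an unadjusted p of 0.0451 and an adjusted p of 0.478 in edgeR. In each of the 6 libraries Stat5b had the higher FPKM of the pair. The ratio of Stat5b to Stat5a FPKM was 2.91 ± 0.45 in WT and 2.64 ± 0.50 in Scd-1-/- (SD, n = 3 each). The summed FPKM of both genes was 37.9 to 52.2 in WT and 28.4 to 32.8 in Scd-1-/-. These sums did not overlap. Their longest transcripts shared 10.8% of the windows of 50 bases in Stat5a and 8.15% in Stat5b, so part of the reads of each could have been given to the other. How such reads were counted is not given in the sources used here. FPKM also divides by a length for each gene that is not given, so the ratio and the sum depend on it too. In WT, Stat5b averaged 197.2 CPM and 33.9 FPKM with a longest transcript of 5213 bases. Stat5a averaged 117.4 CPM and 11.9 FPKM in WT with one of 3958 bases. These transcript lengths would give a smaller ratio.

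**Figure D2:**
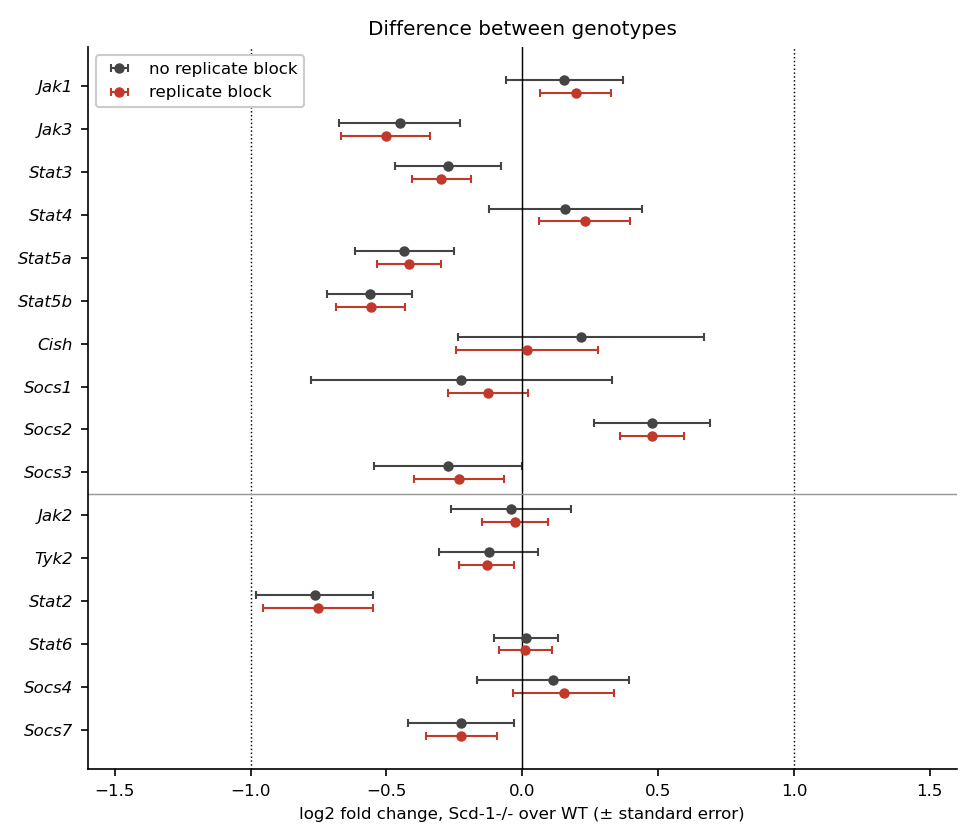
Log2 fold change of Scd-1-/- over WT for the 10 members and, under the line, for 6 other tested JAK, STAT and SOCS genes; points are edgeR estimates without (grey) and with (red) the replicate block, bars are ± 1 SE and dotted lines mark a log2 fold change of 1 in size. Stat5b lies at -0.56 in both fits, and no gene shown lies past a dotted line.

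STAT3 carries signals of IL-6, IL-10 and IL-21 and STAT4 those of IL-12. Neither gene had an adjusted p under 0.05 in edgeR over all 6 libraries. Stat3 (ENSMUSG00000004040, chr11:100885098-100939540, minus strand) was at 16.9, 14.0 and 15.2 FPKM in WT and at 16.2, 11.3 and 10.2 in Scd-1-/-. As for Jak3, only Scd-1-/- replicate 1 was within the WT range. The log2 fold change was -0.27 ± 0.20 (SE), with an adjusted p of 0.713 in edgeR, and leaving out Scd-1-/- replicate 1 or 3 gave -0.50 or -0.15. The gene overlaps Stat5a by 72 bases on the opposite strand.

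Stat4 (ENSMUSG00000062939, chr1:51987148-52107189, plus strand) was at 31.1, 14.5 and 18.8 FPKM in WT and at 25.4, 20.5 and 25.0 in Scd-1-/-. WT held both the highest and the lowest library, and the log2 fold change was 0.16 ± 0.28 (SE), with an adjusted p of 0.911 in edgeR. Without WT replicate 2 its sign turned, to -0.06. Stat4 also overlaps, by 29929 bases on the same strand, the transcript Gm28177. Gm28177 had 556, 1343 and 1485 counts in WT and 288, 521 and 616 in Scd-1-/-, and Stat4 2226, 957 and 1263 counts in WT and 1865, 1366 and 1873 in Scd-1-/-. The log2 fold change of Gm28177 was -1.30, with an adjusted p of 0.358 in edgeR and 0.00427 with the replicate block. The order of the libraries by Gm28177 was not that by Stat4 in either genotype. The counts of both together were 2782, 2300 and 2748 in WT and 2153, 1887 and 2489 in Scd-1-/-. How reads in the shared bases were divided is not known, so the level of Stat4 and the direction of its difference are uncertain.

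Among the feedback genes, Socs2, an inhibitor best known from growth hormone signalling and a STAT5-induced gene, was the only member higher in Scd-1-/- in every same-numbered pair. Socs2 (ENSMUSG00000020027, chr10:95385362-95417180, minus strand) was at 1.83, 2.68 and 2.71 FPKM in WT and at 2.58, 3.61 and 3.67 in Scd-1-/-. In both genotypes replicate 1 was the lowest, and the value of Scd-1-/- replicate 1 lay under WT replicates 2 and 3, so the groups overlapped. The log2 ratio of Scd-1-/- to WT was 0.49, 0.44 and 0.50 in the pairs of replicates 1, 2 and 3. The fitted log2 fold change was 0.48 ± 0.21 (SE), a 1.39-fold higher level, with an adjusted p of 0.518 in edgeR. At 2.41 ± 0.496 FPKM in WT and 3.29 ± 0.611 in Scd-1-/- (SD, n = 3 each), Socs2 had the lowest mean FPKM of the members in both genotypes. By mean CPM it stood above Socs3 in both, at 32.6 and 45.4 against 27.0 and 22.3.

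Cish, the STAT5-induced inhibitor that binds the IL-2 receptor and holds 2 of the GAS copies shown above, had the widest spread of all members in Scd-1-/- on the log2 scale (SD of log2 CPM 1.08, n = 3). Cish (ENSMUSG00000032578, chr9:107296026-107302784, plus strand) was at 9.75, 8.31 and 6.85 FPKM in WT and at 14.7, 10.5 and 3.46 in Scd-1-/-. The Scd-1-/- group held the 2 highest and the lowest of the 6 libraries. The means of 8.30 ± 1.45 and 9.53 ± 5.66 FPKM (SD, n = 3 each) differed by less than this spread, and the log2 fold change was 0.22 ± 0.45 (SE), with an adjusted p of 0.928 in edgeR. Without Scd-1-/- replicate 1 its sign turned, to -0.24. Gm17040, on the opposite strand in the same place, held 87 counts over all libraries against 8601 of Cish.

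Socs1, which inhibits JAK kinases directly and limits the interferon gamma response, differed between replicate numbers and not detectably between genotypes. Socs1 (ENSMUSG00000038037, chr16:10782240-10785536, minus strand) was at 13.7, 60.3 and 49.3 FPKM in WT and at 16.0, 45.0 and 42.3 in Scd-1-/-. Replicate 1 was the lowest library in both genotypes, and all Scd-1-/- libraries lay within the WT range. The log2 fold change between genotypes was -0.22 ± 0.55 (SE), with an adjusted p of 0.936 in edgeR. Replicates 2 and 3 averaged 3.88 times the CPM of replicate 1 in WT and 2.71 times in Scd-1-/-.

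Socs3, which acts mainly on receptors of the IL-6 type through gp130, had a lower mean in Scd-1-/- only with WT replicate 2 included. Socs3 (ENSMUSG00000053113, chr11:117966079-117970047, minus strand) was at 5.79, 11.5 and 7.53 FPKM in WT and at 5.45, 7.50 and 7.27 in Scd-1-/-. The other WT libraries lay close to the Scd-1-/- range. The log2 fold change was -0.27 ± 0.27 (SE), with an adjusted p of 0.823 in edgeR, and without WT replicate 2 it was 0.04.

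The difference between replicate numbers was tested for each gene with the replicate terms of the blocked fit, a test chosen after the values were seen. Socs1 was the only member with an adjusted p under 0.05 (0.00565), against 15.9% of all genes, and by size its difference between replicates 2 and 3 and replicate 1 ranked 116 of 9627. At an unadjusted p under 0.05, 7 of the 10 members were counted, against 32.9% of all genes. Socs1, Socs2, Socs3 and Stat5a were higher in replicates 2 and 3 by 1.69, 0.49, 0.53 and 0.38 on the log2 scale. Cish, Stat4, Jak1, Stat3 and Jak3 had differences of -0.85, -0.57, -0.46, -0.43 and -0.38. Jak3 was not among the 7, and its replicates 2 and 3 were at 1.02 times the CPM of replicate 1 in WT and 0.579 times in Scd-1-/-. For Stat5b the mean of 0.02 joined opposite shifts, with replicates 2 and 3 at 1.21 times the CPM of replicate 1 in WT and 0.850 times in Scd-1-/-. What a replicate number stands for is not given in the sources used here.

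**Figure D3:**
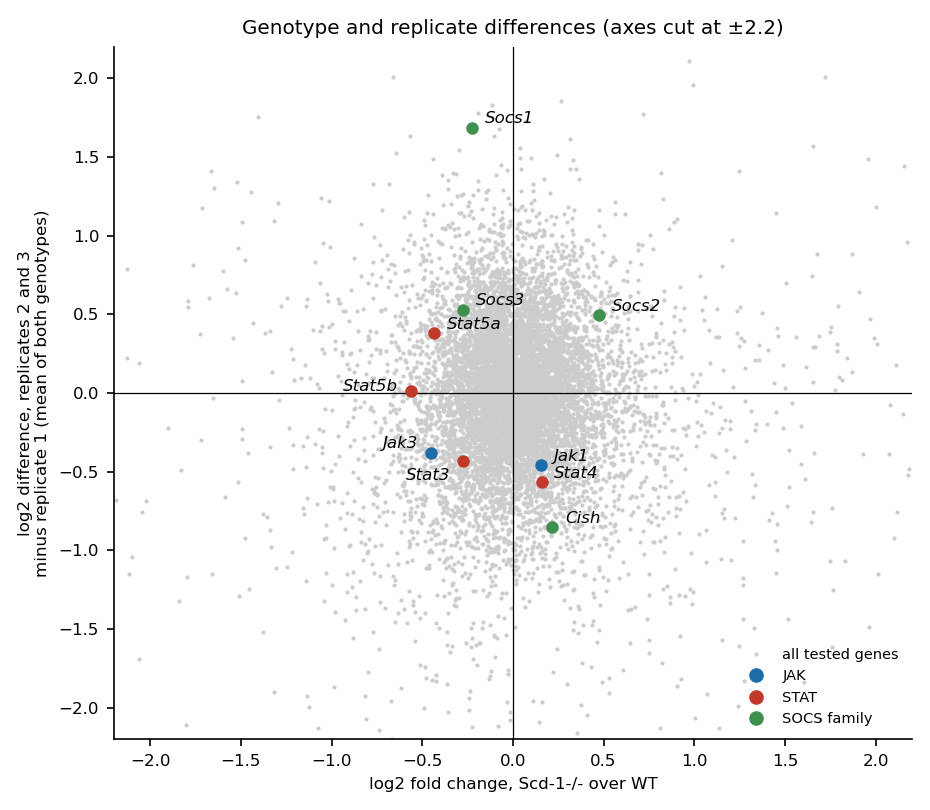
Each grey point is a tested gene, with its log2 fold change of Scd-1-/- over WT on the x axis and the log2 difference of replicates 2 and 3 from replicate 1, averaged over both genotypes, on the y axis; members are coloured by family. Socs1 lies far up (1.69) near the line of no genotype difference, and Stat5b lies to the left (-0.56) at 0.02 on the y axis, the mean of opposite shifts in WT and Scd-1-/-.

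Replicates 2 and 3 alone, a comparison of 2 libraries with 2, gave an adjusted p under 0.05 in edgeR for 5 members, against 12.6% of all genes. Jak3 (adjusted p = 0.00212), Stat5b (0.00853), Stat5a (0.02) and Stat3 (0.0377) were lower in Scd-1-/- and Jak1 (0.0422) was higher. In the pair of replicate 1 the log2 ratios of these genes were 0.04, -0.22, -0.19, -0.07 and -0.17 in the same order, each nearer to 0 than in the pairs of replicates 2 and 3 or of the other sign. Whether the difference between genotypes itself differed between replicate numbers was not tested, since replicate 1 has 1 library per genotype.

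Ordered by deposited FPKM, the WT means fell from Jak3 through Socs1, Jak1, Stat5b, Stat4, Stat3, Stat5a, Cish and Socs3 to Socs2. Jak3 stood clear of Socs1, Stat3 of Stat5a, and Socs3 of Socs2, while the ranges of all other neighbours overlapped. FPKM is per length, but the lengths used are not given and did not follow the transcripts. Cish averaged 89.6 CPM and 8.30 FPKM in WT with a longest transcript of 4697 bases. Socs1 averaged 49.4 CPM and 41.1 FPKM in WT with one of 2908 bases. The order can therefore differ from one by transcript length. In Scd-1-/- the order was Jak3, Jak1, Socs1, Stat4, Stat5b, Stat3, Cish, Stat5a, Socs3 and Socs2. There Stat5b was clear of Stat3, Stat5a of Socs3, and Socs3 of Socs2. Stat5b thus stood above Stat4 by mean in WT and below it in Scd-1-/-, but the 2 genes overlapped in both. The 5 genes most like Stat5b across the 6 libraries, by the mean absolute difference of centred log2 CPM, were Lrrc42 (0.0285), Tbc1d10a (0.0295), Pdlim1 (0.0382), Anks1 (0.0544) and the T cell receptor inhibitor Cd5 (0.0665).

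Of 8 other JAK, STAT and SOCS genes, 6 were tested, and Socs5 and Socs6 were under the FPKM minimum. Stat2, a STAT of type I interferon signalling, was at 7.92, 12.6 and 11.8 FPKM in WT and 7.34, 5.70 and 5.64 in Scd-1-/-, with a log2 fold change of -0.76 ± 0.22 (SE) and an adjusted p of 0.273. Its groups did not overlap. The log2 ratio was -0.11 in the pair of replicate 1 but -1.14 in that of replicate 2, and replicates 2 and 3 alone gave a log2 fold change of -1.07 with an adjusted p of 0.00212 in edgeR. The log2 fold changes of Jak2, Tyk2, Stat6, Socs4 and Socs7 were -0.04, -0.12, 0.01, 0.11 and -0.22, with adjusted p-values from 0.79 to 0.984.

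A further 7 lists of ligands, receptors, regulators and target genes, with the family genes above, held 105 genes, of which 74 were tested. In edgeR without the block, 0 had an adjusted p under 0.05 and 17 an unadjusted p under 0.05 (23.0% against 10.1% of all genes), while DESeq2 called 6 (2.76% of all genes) and limma 0. With the replicate block 12 had an adjusted p under 0.05, 8 higher and 4 lower (16.2% against 4.7%). These lists were chosen with earlier results of these data known, so their counts are a description. In replicates 2 and 3 alone, 24 of the 74 had an adjusted p under 0.05 (12.6% of all genes). The 6 that DESeq2 called, without a block, were Ifngr2, Il4ra, Gzmb, Id2, Il18r1 and Il18rap. In what follows, called means an adjusted p under 0.05 in edgeR over all 6 libraries, and both edgeR fits are meant unless 1 is named. Among the receptors, the chains of the IL-2 receptor are named here after their values were seen. They are Il2ra, which binds IL-2 and no JAK, Il2rb, which binds JAK1, and Il2rg, the common gamma chain, which binds JAK3. Il2ra was at 96.7 to 175.4 FPKM in WT and 100.8 to 157.3 in Scd-1-/-, Il2rb at 333.3 to 417.7 and 431.7 to 472.2, and Il2rg at 123.6 to 145.1 and 121.9 to 135.3. Il2rb alone did not overlap, with a log2 fold change of 0.34 ± 0.13 (SE) and an adjusted p of 0.448 in edgeR, and 0.46 with an adjusted p of 0.0232 in replicates 2 and 3 alone.

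Of 15 tested receptor chains, 2 were called lower with the block, where 4.7% of all genes were called, and none was called without it in edgeR, whereas DESeq2 without a block called the same 2. Ifngr2, the signalling chain of the interferon gamma receptor, was at 1.15, 3.21 and 2.61 FPKM in WT and at 0.275, 0.364 and 0.630 in Scd-1-/- (log2 fold change -2.42 ± 0.48 (SE), adjusted p = 0.12 in edgeR and 0.0089 with the block). Il4ra, which pairs with the common gamma chain, had a log2 fold change of -0.71 and adjusted p-values of 0.202 and 0.0334, and without Scd-1-/- replicate 1 the adjusted p was 0.0289 in the fit with no block. Without WT replicate 1 that of Ifngr2 was 0.0277. Il27ra, at -0.47, had an adjusted p of 0.407, and -0.66 with an adjusted p of 0.0139 in replicates 2 and 3 alone. All 3 had lower values in every Scd-1-/- library than in any WT library. Groups that did not overlap, in either direction, were seen for 5 of the 15 chains and 16.1% of all genes. Of 6 tested ligands, 3 were called with the block and 0 without it. Ifng, which encodes interferon gamma, was at 17.2, 3.13 and 2.68 FPKM in WT and 30.9, 11.6 and 11.7 in Scd-1-/-, Lif at 2.26, 18.2 and 18.6 and 1.26, 4.37 and 4.31, and Csf2 at 0.330, 2.40 and 2.81 and 1.20, 6.38 and 6.62. Each of the 3 overlapped between the groups and differed in the same direction in every same-numbered pair, which being called with the block favours. Their adjusted p-values in edgeR were 0.65, 0.449 and 0.621, and 0.0232, 0.011 and 0.0365 with the block. Il13 (log2 fold change -1.52) and Osm (0.53) were not called in either fit, but in replicates 2 and 3 alone their adjusted p-values were 0.029 and 0.0479 in edgeR. Without WT replicate 3 the log2 fold change of Il13 was -0.88, and without Scd-1-/- replicate 2 that of Osm was 0.34. The log2 fold change of Ifng, 1.24 over all libraries, was 2.68 without WT replicate 1, 0.83 without WT replicate 3 and 0.60 without Scd-1-/- replicate 1. That of Csf2, 1.39, was 0.89 without WT replicate 1.

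Of 14 tested inhibitors and phosphatases other than the SOCS genes, 2 were called with the block (4.7% of all genes) and 0 without it. The JAK2 adaptor Sh2b3 (-0.80) was lower and the nuclear phosphatase Dusp2 (0.41) higher with the block, with adjusted p-values of 0.0355 and 0.0453 against 0.414 and 0.912 in edgeR without it. The ubiquitin ligase Cblb (0.24) and Usp18, an inhibitor of type I interferon signalling (-1.03), were not called. In replicates 2 and 3 alone the log2 fold change of Usp18 was -1.40 with an adjusted p of 0.0411. Dusp2 lay between -0.53 and 1.53 when 1 library was left out. The 7 partners through which the SOCS box recruits a ubiquitin ligase had log2 fold changes between -0.08 (Rbx1) and 0.39 (Eloc). Rnf7 was at 0.35, and 0 of the 7 were called in either fit, with 1 and 2 at an unadjusted p under 0.05 without and with the block, against 10.1% and 22.4% of all genes.

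**Figure D4:**
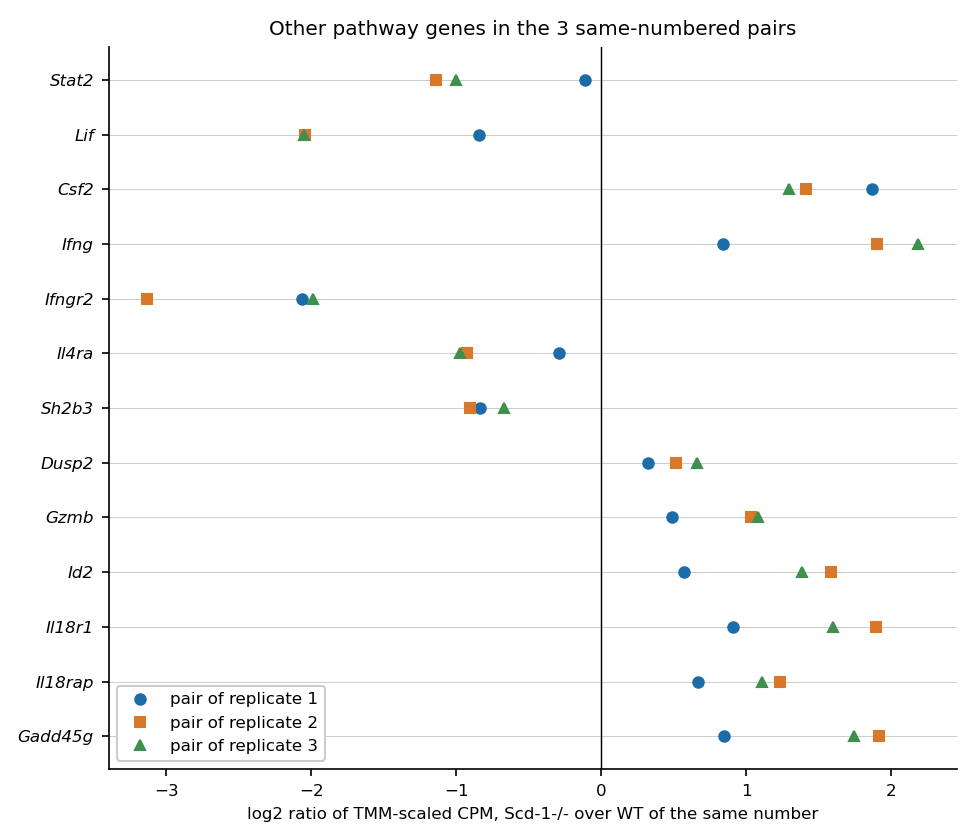
Log2 ratio of TMM-scaled CPM, Scd-1-/- over WT, in the 3 same-numbered pairs for Stat2 and the 12 pathway genes with an adjusted p under 0.05 in the replicate block fit. Each symbol is 1 pair, and all 3 pairs of a gene lie on the same side of 0 for every gene shown. The 12 genes were chosen by a fit over these same pairs, which favours such agreement. Of all tested genes, 22.1% were higher and 22.9% lower in all 3 pairs.

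Of 10 tested STAT4 targets, 9 were higher by mean, with a median of 0.34, and 4 were called higher with the block. Of all 9627 genes, 4804 were higher, and 4.7% were called with the block in either direction. Il18r1, a chain of the IL-18 receptor, was at 4.94, 3.18 and 3.89 FPKM in WT and at 9.30, 11.8 and 11.3 in Scd-1-/-, with no overlap. Without the block it was the only gene of the lists past the thresholds of the study (log2 fold change 1.45 ± 0.20 (SE), unadjusted p = 1.27e-04 and adjusted p = 0.0646 in edgeR, 0.0089 with the block). With the block 7 list genes passed these thresholds, against 1.91% of all genes, namely Il18r1, Il18rap, Gadd45g, Ifng, Lif, Id2 and Ifngr2. The other 3 called STAT4 targets were Il18rap (1.04), Gadd45g (1.72) and Ifng (1.24), with adjusted p-values of 0.0107, 0.00984 and 0.0232 with the block and 0.168, 0.441 and 0.65 without it. Stat4 itself was not called without the block or in any of its 14 alternatives.

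Of 17 tested STAT5 targets, 13 were higher and 4 lower by mean, with a median of 0.07, beside 4804 higher of all 9627 genes. With the block 3 were called, against 4.7% of all genes. The cytotoxic protease Gzmb (0.89) and the transcriptional regulator Id2 (1.25) were higher and the cytokine Lif (-1.94) was lower. Gzmb was at 2496, 2428 and 2668 FPKM in WT and at 3509, 4955 and 5416 in Scd-1-/-, and its adjusted p was 0.101 in edgeR and 0.0208 with the block. Id2 was at 103.3, 104.3 and 123.6 FPKM in WT and at 153.8, 312.0 and 309.5 in Scd-1-/-, with adjusted p-values of 0.146 and 0.0171. Neither overlapped between the groups. Tnfrsf4, a costimulatory receptor, was not called (-0.87), with log2 ratios of -0.05, -1.27 and -1.33 in the pairs of replicates 1, 2 and 3. In replicates 2 and 3 alone its log2 fold change was -1.30 with an adjusted p of 4.62e-04, and 9 of the 17 STAT5 targets and 3 of the 8 STAT3 targets had an adjusted p under 0.05, against 12.6% of all genes. Of 8 tested STAT3 targets, 6 were higher, with a median of 0.26, and 0 were called in either fit, with 1 and 3 at an unadjusted p under 0.05 without and with the block (10.1% and 22.4% of all genes). Prdm1, which encodes Blimp-1, had a log2 fold change of 0.87 and an adjusted p of 0.329 in edgeR, Ier3 0.58 and Bcl3 -0.42. The pair ratios of Prdm1 were 0.12, 1.39 and 1.26, and its log2 fold change in replicates 2 and 3 alone was 1.33 with an adjusted p of 0.00162 in edgeR. Without WT replicate 1 it was 1.21, with an adjusted p of 0.0478.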

How the data were processed

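The authors deposited, for each of 6 libraries, raw counts per gene and FPKM values for 34745 genes. The submitters' processing notes name HISAT2, StringTie 1.3.0 and GRCm38. A stranded library kit for total RNA stands in the methods, but poly(A) RNA and a different kit in the labels, so strand use in counting is unknown. The deposited FPKM follows from the counts, a fixed length for each gene and library totals, without a TMM factor. These lengths are not given.

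Counts of the 9627 genes whose mean FPKM reached 1 were scaled by TMM and tested with edgeR 4.0.16 (quasi-likelihood, R 4.3.3), with p-values adjusted over all tested genes by the Benjamini-Hochberg method. The study's thresholds were kept. DESeq2 1.42.0, limma 3.58.1 on log2(FPKM + 1) or log2(FPKM + 0.1), other filters and scaling, the replicate block, replicates 2 and 3 alone, and leaving out each library were alternatives. An exact permutation test of 3 against 3 libraries cannot give a p under 0.1, so ratios were only described.

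Across genes, deviations from the group means of same-numbered libraries correlated with r of 0.595, 0.306 and 0.470. By the rule that every r be over 0.1, the numbers pair the libraries, although no label says why. WT replicate 3 with Scd-1-/- replicate 2 gave 0.380 and WT replicate 2 with Scd-1-/- replicate 3 gave 0.180, so the data part replicate 1 from the others but do not tie replicates 2 and 3 each to its own number. The members and lists were chosen with earlier results of these data known. Named are the members, the other family genes, from each list the 3 with the smallest p and any called with or without the block, the marker genes and the 5 genes most like Stat5b. Some genes of the family, the target lists and the markers are not reported here. Positions are from GENCODE M21 (34267 of 34745 genes matched).

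On simulated counts of 9627 genes with 200 changed by 2 on the log2 scale, the unblocked fit found 188 of them at the study's thresholds and made 13 false calls, and the blocked fit found 186 and made 14. A simulation with a shift of replicate 1 also used a lower dispersion, and its numbers were 192 (0 false) and 199 (2 false). The simulations thus differ in more than the shift and cannot show what the shift alone does. Changes as small as those of the members were not simulated.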

Additional observations from a re-analysis of the deposited data

How the results depend on the processing

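The genes past the thresholds of the study numbered 71, but 148 with no FPKM minimum, 42 with a minimum of 5, 184 with the replicate block, 161 with DESeq2, 369 in replicates 2 and 3 alone and 25 to 163 when 1 library was left out. Genes with an adjusted p under 0.05 numbered 11, but 84, 452, 266 and 1213 with no minimum, the block, DESeq2 and replicates 2 and 3 alone, 17 with limma on log2(FPKM + 1) and 2 to 182 when 1 library was left out. Members with an adjusted p under 0.05 numbered 0, but 1 with the block, 5 in replicates 2 and 3 alone and 0 to 1 when 1 library was left out. Genes of the other lists numbered 0, but 2 with no minimum, 12 with the block, 6 with DESeq2, 24 in replicates 2 and 3 alone and 0 to 6 when 1 library was left out. The pairing by replicate block changed no call of a member other than Stat5b.

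Jak1, Jak3, Stat3, Stat5a and Stat5b kept their direction in all 14 alternatives, and Socs2 in all 13 that tested it. With 1 library left out, their values ran from 0.0090 to 0.44 (Jak1), -0.76 to -0.29 (Jak3), -0.50 to -0.15 (Stat3), -0.60 to -0.33 (Stat5a), -0.65 to -0.44 (Stat5b) and 0.33 to 0.62 (Socs2). For the other members, leaving out 1 library gave -0.63 to 0.17 for Socs1 (0.12 without Scd-1-/- replicate 1), -0.46 to 0.044 for Socs3, -0.062 to 0.55 for Stat4 and -0.24 to 0.61 for Cish, whose sign also turned with limma on log2(FPKM + 0.1) (-0.018) and in replicates 2 and 3 alone (-0.095). Among other named genes the sign turned when 1 library was left out for Jak2 (-0.18 to 0.18), Tyk2 (-0.27 to 0.0058), Stat6 (-0.026 to 0.066), Socs4 (-0.050 to 0.44), Dusp2 (-0.53 to 1.53), Rbx1 (-0.13 to 0.011), Il2ra (-0.11 to 0.28) and Il2rg (-0.064 to 0.019). It also turned for Jak2 in replicates 2 and 3 alone (0.044) and for Stat6 there (-0.065) and in both limma fits (-0.011 and -0.011). The cause was not tested. Depth limits the genes with few counts more than the members, all of which had a mean of at least 1 FPKM.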
